A study of Mus musculus with 12 samples.

Results

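Fibroblast growth factors (FGFs) are secreted ligands, and most of them signal over short distances by binding receptor tyrosine kinases of the FGFR family together with heparan sulphate on the cell surface. Mesenchymal stem cells (MSCs), the multipotent stromal cells that form bone, fat and cartilage, both receive and send such signals, and FGF ligands and receptors are known for their roles in limb outgrowth, skeletal growth and stem cell maintenance. Here, 9 genes of this family were followed: the ligands Fgf1, Fgf2, Fgf7, Fgf9, Fgf10 and Fgf18 and the receptors Fgfr1, Fgfr2 and Fgfr3, out of 21951 annotated protein-coding genes. A region of either mark belonged to a gene when it overlapped the GENCODE gene body extended by 50 kb on each side, which from here on is called the window of the gene.

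The libraries were CUT&RUN profiles, in which an antibody directs a nuclease to a chromatin mark so that the DNA around the mark is released and sequenced. The MSCs came from young mice aged 3 to 5 months or old mice aged 18 to 22 months, were grown throughout at 2% oxygen, and were profiled for H3K27ac, acetylation of lysine 27 of histone H3 found at active promoters and enhancers, and for H3K27me3, trimethylation of the same residue laid down by Polycomb complexes on silent genes. Each of the 4 groups (young and old, for each mark) held 3 libraries, no genotype or treatment beyond age was labelled, and the labels do not say whether a library came from 1 animal, so p-values measure only the spread between these libraries. Libraries of H3K27ac held 2750953 to 5541429 reads and libraries of H3K27me3 held 3622108 to 9947515, and old replicate 2 was the shallowest library of both marks. As a check of the labelled cell type, 7 of 7 MSC marker genes carried an H3K27ac region within 1 kb of a transcription start site (TSS) and 0 of 7 blood and endothelial marker genes did, whereas 5 of those 7 carried H3K27me3 there.

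The rule gave 92 of 31617 H3K27ac regions and 55 of 28047 H3K27me3 regions. Most of these belonged to Fgfr2, because the annotated body of that gene includes a single transcript that starts far upstream and spans 2.96 Mb with 30 other protein-coding genes inside. With the RefSeq body of Fgfr2, chr7:130162451-130266808, which is 104.4 kb long and holds 0 other genes, 36 H3K27ac and 20 H3K27me3 regions remained. The description of Fgfr2 uses this shorter body, a choice made after seeing the data, and counts of regions are given for both. All signal values are per library, scaled within a mark by the median of ratios, and are sums of reads over a region that were not divided by its length. Levels are therefore compared between genes only as density, the scaled signal inside a window per kb of window.

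The promoters of the family fell into several states. Of the 9 genes, 7 carried H3K27ac within 1 kb of a TSS, 6 carried H3K27me3 and 4 (Fgf2, Fgf10, Fgf18 and Fgfr3) carried both, whereas 0 carried neither. Among 21864 protein-coding genes with a listed TSS, the same shares were 53.6% for H3K27ac, 33.9% for H3K27me3, 9.01% for both and 21.5% for neither. The 250 bases before the RefSeq TSS are shown for 4 ligands because they stand for these states: Fgf7 lay in H3K27ac alone, Fgf9 in H3K27me3 alone, and Fgf10 and Fgf2 in both. The sequences are from the GRCm38.p6 build, written 5′ to 3′ on the coding strand, and capitals mark each CG dinucleotide (CpG), the base pair step that is dense in CpG islands, where Polycomb complexes are known to bind. They lie at chr2:126034408-126034657 for Fgf7, chr14:58072436-58072685 for Fgf9, chr13:118714449-118714698 for Fgf10 and chr3:37348403-37348652 for Fgf2, all on the plus strand.
Fgf7: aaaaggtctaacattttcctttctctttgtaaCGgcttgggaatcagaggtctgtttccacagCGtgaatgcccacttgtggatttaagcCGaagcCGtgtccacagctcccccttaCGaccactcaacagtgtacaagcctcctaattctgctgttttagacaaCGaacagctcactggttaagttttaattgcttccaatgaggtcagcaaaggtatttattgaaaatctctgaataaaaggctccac
Fgf9: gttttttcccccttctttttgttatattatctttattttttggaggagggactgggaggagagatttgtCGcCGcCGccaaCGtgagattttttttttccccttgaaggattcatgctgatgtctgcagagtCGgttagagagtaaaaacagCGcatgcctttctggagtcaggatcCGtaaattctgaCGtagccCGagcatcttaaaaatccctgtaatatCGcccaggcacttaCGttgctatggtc
Fgf10: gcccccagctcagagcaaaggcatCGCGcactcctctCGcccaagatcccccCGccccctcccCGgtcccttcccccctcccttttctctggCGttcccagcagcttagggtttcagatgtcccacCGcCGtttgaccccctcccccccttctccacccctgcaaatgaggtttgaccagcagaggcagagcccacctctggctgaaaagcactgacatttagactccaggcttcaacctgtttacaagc
Fgf2: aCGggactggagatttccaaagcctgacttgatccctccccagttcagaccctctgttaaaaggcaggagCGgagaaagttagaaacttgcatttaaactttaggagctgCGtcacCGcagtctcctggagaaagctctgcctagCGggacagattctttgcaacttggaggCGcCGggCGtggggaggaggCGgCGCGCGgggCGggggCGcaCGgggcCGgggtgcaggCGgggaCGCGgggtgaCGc

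These stretches held 6 CpGs for Fgf7, 11 for Fgf9, 8 for Fgf10 and 20 for Fgf2, beside a median of 6 over 32841 RefSeq promoter stretches of the same length. RefSeq stretches of 7 of the 9 genes were compared, without Fgfr1 and without Fgf1, whose chromosome was left out of this step. The remaining ones held 2 CpGs for Fgfr2, 37 for Fgf18, and 19 and 24 for 2 start sites of Fgfr3. Fgf18 thus had a CpG count above 97.8% of all stretches and Fgfr2 a count above 18.8%. The GC box motif GGGCGG, which itself holds a CpG and was searched on both strands, was present upstream of Fgf2, Fgf10, Fgf18 and both Fgfr3 start sites and in 32.7% of all stretches, and it was absent from these windows of Fgf7, Fgf9 and Fgfr2. The 4 genes with both marks within 1 kb of a TSS were the same 4 genes whose stretches held the motif. This is a description of the 7 genes with a sequence. At Fgf18 neither of the marks covered the TSS itself, and at Fgfr3 only H3K27ac did. The CCAAT box was present upstream of Fgf7 and of 1 Fgfr3 start site and in 33.9% of all stretches, and the TATA box motif TATAAA was present in none of the member stretches and in 12.4% of all.

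**Figure D1:**
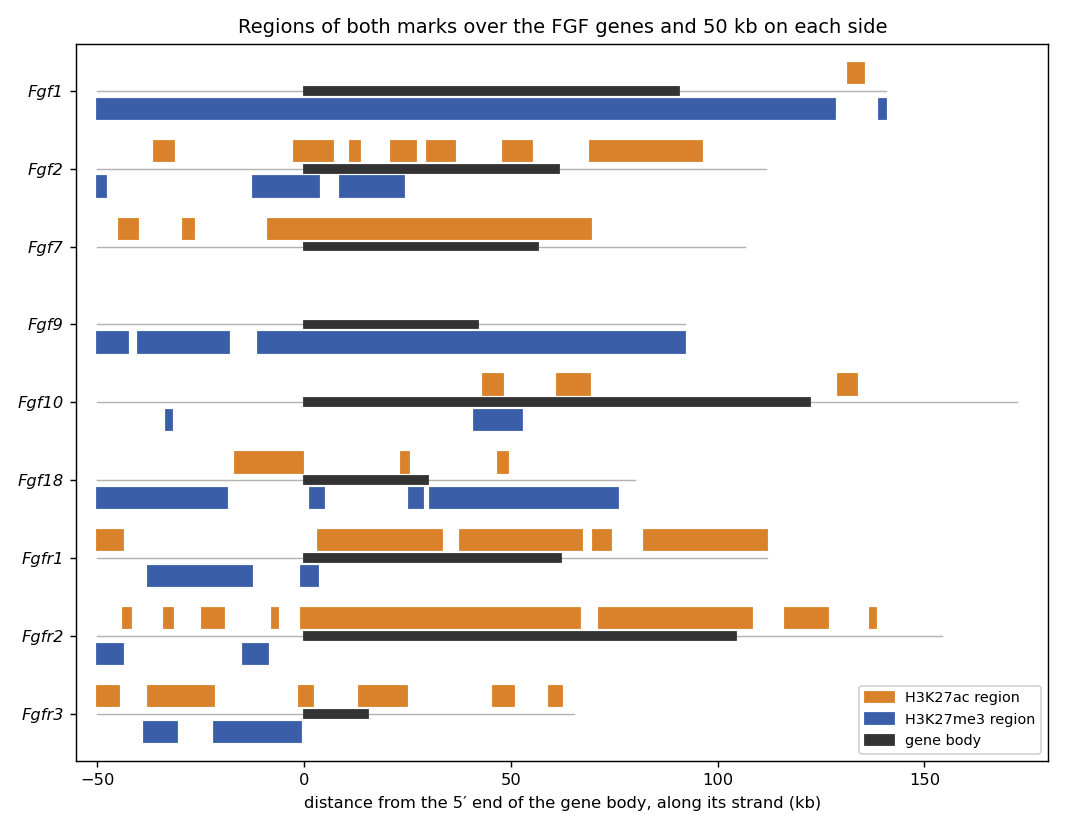
Positions of H3K27ac regions (orange, above the line) and H3K27me3 regions (blue, below) relative to each gene body (black), with the distance in kb from the 5′ end of the body along the strand of the gene and the RefSeq body used for Fgfr2. Fgf7 has no H3K27me3 region and Fgf9 no H3K27ac region, while regions of both marks lie over each other in the windows of Fgf2, Fgf10, Fgf18 and Fgfr3.

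Among the receptors, Fgfr1 and Fgfr2 lay in broad acetylated chromatin. Fgfr1, the main FGF receptor of mesenchymal cells, had H3K27ac regions over 87.4% of its body, and a density of 1.34 ± 0.04 (SD, n = 3) in young and 1.34 ± 0.05 (SD, n = 3) in old libraries, above 89.8% of all genes. A 30 kb H3K27ac region over an Fgfr1 TSS, at chr8:25517001-25547000, gave scaled signals of 82.1, 77.7 and 93.8 in young and 77.0, 81.7 and 85.8 in old libraries. A 4 kb H3K27me3 region at the 5′ end of the gene, chr8:25513001-25517000, ended exactly where this acetylated region began. Fgfr2, whose isoforms bind FGF7 and FGF10 in epithelium and FGF9 and FGF18 in mesenchyme, had H3K27ac over 95.7% of its RefSeq body, and H3K27me3 covered 0% of it.

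Fgfr3, a receptor known as a brake on bone growth, had H3K27ac regions over 28.5% of its body, less than the other receptors. Its TSS carried a short H3K27ac region of 3.5 kb at chr5:33720501-33724000, which shared 0.5 kb with the 21 kb H3K27me3 region upstream, chr5:33700001-33721000. Regions of H3K27ac covered 38.4% and regions of H3K27me3 25.1% of the Fgfr3 window. The largest acetylated region, chr5:33599001-33677000, lay outside the gene and over the start sites of Slbp, Tmem129, Tacc3 and other neighbours, so the window values of Fgfr3 also carry neighbouring genes. The same holds for Fgfr1, whose window reached a 159.5 kb acetylated region over Nsd3, Letm2 and other genes, chr8:25596001-25755500.

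Among the ligands, Fgf7, a growth factor that stromal cells make for epithelium, was the most acetylated. A single H3K27ac region of 78 kb, chr2:126026001-126104000, contained the entire gene. Its window density of 1.79 ± 0.05 (SD, n = 3) in young libraries was above 96.9% of all genes. In contrast, Fgf9, a ligand that acts on mesenchyme, lay inside an H3K27me3 domain of 187 kb, chr14:58059501-58246500, and 93.3% of its window was covered. Fgf1, which binds all FGF receptors, lay in a comparable H3K27me3 domain of 181.5 kb, chr18:38801001-38982500, and its only H3K27ac region, chr18:38794001-38798000, sat in the gap before the next domain, 3.0 and 3.5 kb from their edges. That H3K27ac region lay outside the Fgf1 body and overlapped the neighbouring gene Arhgap26. The H3K27me3 densities of Fgf1, Fgf9 and Fgf18 in young libraries (2.24 ± 0.08, 2.07 ± 0.08 and 2.05 ± 0.11, SD, n = 3) were above 95.6%, 94.2% and 94.1% of all genes, and the values of Fgf9 and Fgf18 differed by less than their spread. H3K27me3 covered 100% of the bodies of Fgf1 and Fgf9 but 23.4% of that of Fgf18. The Fgf18 density also carries regions outside the gene, including a 45 kb region over the neighbouring gene Tlx3.

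The remaining ligands had both marks. Fgf2, a mitogen of MSCs in culture, carried an H3K27ac region over its TSS, chr3:37346001-37355500, of which 63.2% lay inside an H3K27me3 region, chr3:37336001-37352000. Fgf10, the mesenchymal signal for limb and lung budding, had little of either mark in its window, with 7.87% of it covered by H3K27ac and 5.85% by H3K27me3. At its TSS, however, a 5 kb H3K27ac region, chr13:118713001-118718000, lay completely inside an 11.5 kb H3K27me3 region, chr13:118711001-118722500. At Fgf18, which promotes bone and cartilage formation, the H3K27ac region within 1 kb of the TSS, chr11:33147501-33164000, spanned 16.5 kb and covered the TSS of the neighbouring gene Npm1, and it was flanked by H3K27me3 regions at gaps of 1.5 and 2.0 kb. Because the libraries are of bulk cells, both marks at a promoter cannot be told apart from a mixture of cells with 1 mark each, and a lower signal cannot be told apart from fewer cells with the mark.

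In young libraries the order of H3K27ac density was Fgf7, Fgfr1, Fgfr2, Fgf2, Fgfr3, Fgf18, Fgf10, Fgf1 and Fgf9, the last without a region. The young values of Fgfr1 and Fgfr2 (1.34 ± 0.04 and 1.28 ± 0.01, SD, n = 3) and those of Fgf2 and Fgfr3 (0.839 ± 0.050 and 0.720 ± 0.060, SD, n = 3) differed by more than the larger SD of each pair. The order of H3K27me3 density was Fgf1, Fgf9, Fgf18, Fgfr1, Fgf2, Fgfr3, Fgfr2, Fgf10 and Fgf7, the last without a region. The neighbours Fgfr1, Fgf2 and Fgfr3 (0.279 ± 0.016, 0.266 ± 0.028 and 0.250 ± 0.038, SD, n = 3) differed by less than their spread. For comparison, the median gene had a density of 0.394 for H3K27ac and 0.3998 for H3K27me3.

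**Figure D2:**
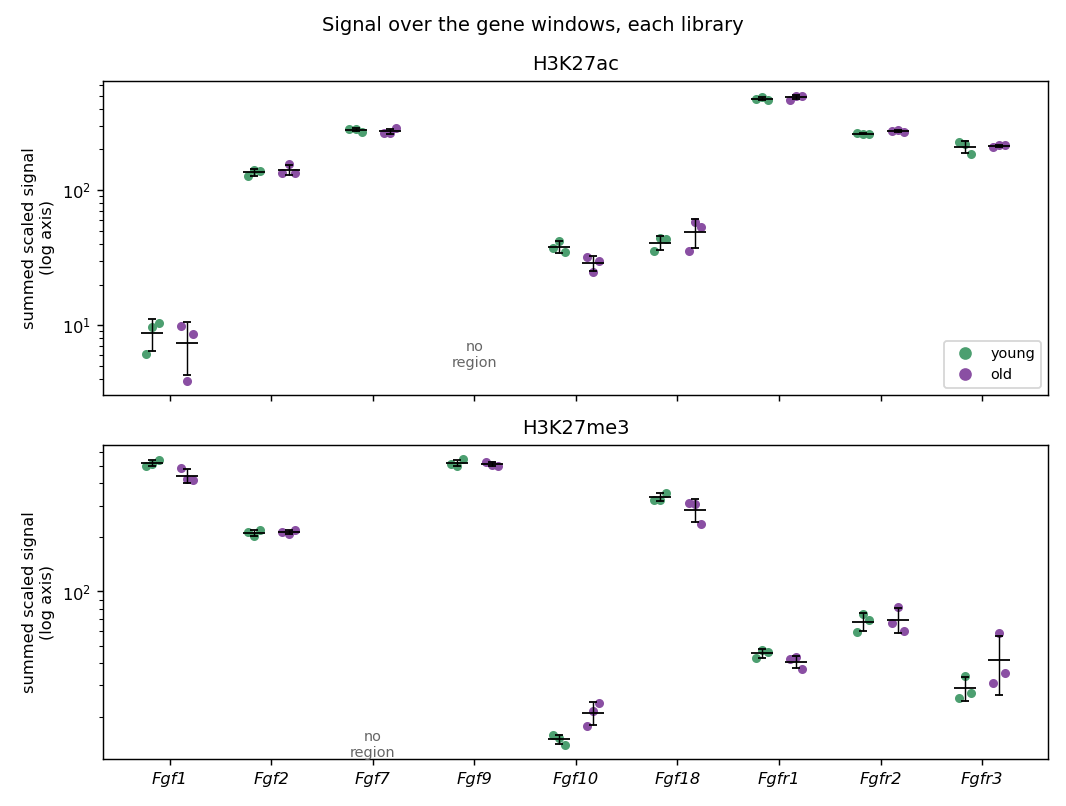
Scaled signal summed over the regions of each window, on a log axis, for the 3 young (green) and 3 old (purple) libraries of each mark, with the mean and SD in black. Each region counts whole, so some sums are mostly signal of a region over neighbouring genes. These are the H3K27ac sums of Fgf18, Fgfr1 and Fgfr3 and the H3K27me3 sums of Fgf2 and Fgf18. The only H3K27ac region of Fgf1 also overlaps a neighbouring gene. Young and old points lie close together for Fgf2, Fgf7, Fgf9 and Fgfr1, whereas for Fgf10 the old points lie below the young in H3K27ac and above them in H3K27me3.

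It was next asked whether these patterns differed with age. Each region was tested with limma, and a region was called at a Benjamini-Hochberg adjusted p under 0.05 over all regions of the mark. In H3K27ac, 0.0822% of all regions were called, and of the member regions 3 of 92 were called, all lower in old cells. With the RefSeq body of Fgfr2 the count was 0 of 36, and edgeR and DESeq2 on the recovered reads also called 0 of these. An unadjusted p under 0.05 was reached by 13 of the 92 and by 3 of the 36 H3K27ac regions (14.1% and 8.33%), beside 9.59% of all regions. In H3K27me3, 0.488% of all regions were called and 0 of 55 member regions, and edgeR and DESeq2 called 0 as well. An unadjusted p under 0.05 was reached by 11 of the 55 and, with the RefSeq body, by 5 of the 20 H3K27me3 regions, beside 13.9% of all regions. The median log2 fold change of H3K27ac was 0.02 over the 92 and -0.00625 over the 36 regions, beside -0.00276 over all regions. That of H3K27me3 was 0.03 over the 55 regions and -0.08 over the 20, beside -0.01 over all regions, so its sign turned with the body chosen for Fgfr2.

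The 3 called regions lay 907 to 1010 kb from the nearest Fgfr2 TSS, over and next to Cpxm2, a gene for a carboxypeptidase-like secreted protein, and they entered the count only through the long annotated body of Fgfr2. The region over the Cpxm2 TSS, chr7:132117001-132155500, had scaled signals of 123, 96.0 and 108 in young and 75.0, 48.3 and 73.7 in old libraries. All old libraries lay below all young ones (log2 fold change -0.75 ± 0.13, SE, limma adjusted p = 0.0239). The neighbouring regions chr7:132077001-132113500 and chr7:132204001-132216500 had log2 fold changes of -0.71 ± 0.13 (SE, limma adjusted p = 0.0193) and -0.90 ± 0.18 (SE, limma adjusted p = 0.0319), also without overlap of the ages. In the H3K27me3 regions over the same stretch, chr7:132142501-132170000, chr7:132174501-132210000 and chr7:132213501-132226000, all old libraries lay above the young ones. Their log2 fold changes were 0.50 ± 0.17, 0.37 ± 0.13 and 0.63 ± 0.18 (SE), and none passed the test (limma adjusted p = 0.182, 0.188 and 0.0996). Old replicate 2 was the highest library in each, at 68.4, 89.3 and 32.8. The other old libraries had 38.8 and 40.6, 62.3 and 65.8, and 20.0 and 21.1, beside highest young values of 37.8, 59.8 and 16.2. Of the H3K27ac calls, DESeq2 called 1 of the 3, a fit without variance trend called 0, and so did the fits without young replicate 1, young replicate 3 or old replicate 2.

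At Fgf10, the values of the marks at the TSS stood apart between the ages in opposite directions. The H3K27ac region at the TSS had scaled signals of 12.6, 12.6 and 14 in young and 9.08, 7.01 and 7.57 in old libraries. These rest on 22 to 43 reads per young library and on 9 to 23 per old library. The old libraries were all below the young ones, and the log2 fold change of -0.70 ± 0.25 (SE) did not pass the test (limma adjusted p = 0.311). The enclosing H3K27me3 region had scaled signals of 14.1, 12.8 and 12.5 in young and 14.8, 18.7 and 22.1 in old libraries. Here all old libraries were above the young ones, with a log2 fold change of 0.46 ± 0.18 (SE) that did not pass either (limma adjusted p = 0.226). An H3K27ac region in the body of the gene, chr13:118731001-118739000, had scaled signals of 18.4, 17.1 and 13.4 in young and 15, 7.01 and 10.1 in old libraries (log2 fold change -0.64 ± 0.25, SE, limma adjusted p = 0.374). The ages overlapped in this region, and without old replicate 2 its log2 fold change was -0.38. The third H3K27ac region of the window, chr13:118799001-118803500, lay beyond the 3′ end of the gene and had the opposite sign, at 0.24 ± 0.28 (SE, limma adjusted p = 0.836).

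**Figure D3:**
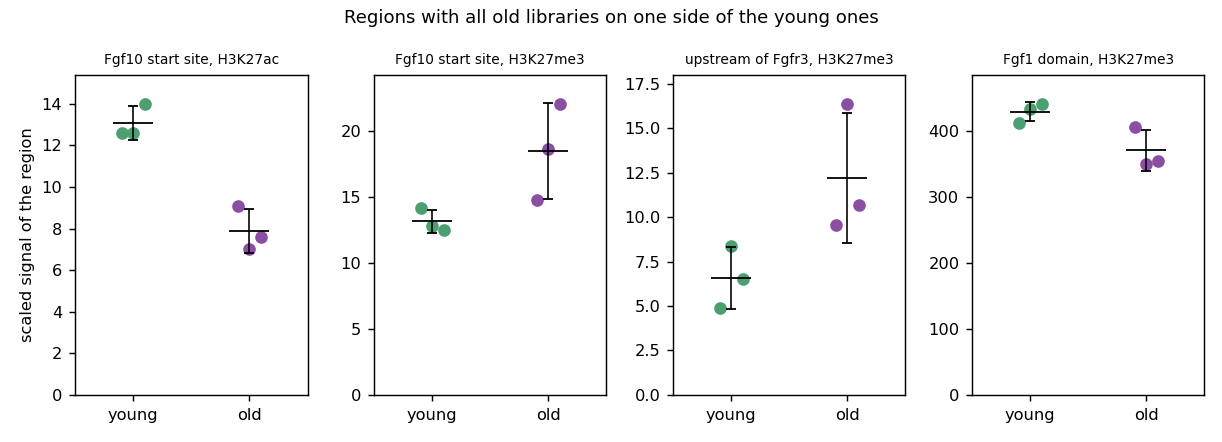
Scaled signal of 4 regions in each young (green) and old (purple) library, with the mean and SD in black and axes that start at 0. The old points lie below the young for H3K27ac at the Fgf10 TSS and H3K27me3 over Fgf1, and above them for H3K27me3 at the Fgf10 TSS and upstream of Fgfr3, and none of the 4 differences passed the test.

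Upstream of Fgfr3, the H3K27me3 region chr5:33683001-33691000 had the smallest p of the H3K27me3 regions outside the long Fgfr2 body. Its scaled signals were 4.91, 8.40 and 6.50 in young and 9.55, 16.4 and 10.7 in old libraries, a log2 fold change of 0.83 ± 0.24 (SE, limma adjusted p = 0.107). All old libraries were above the young ones, and without old replicate 2 the log2 fold change was 0.61. The region lay 30.7 kb from the nearest Fgfr3 TSS and shared 7.0 kb with an acetylated region, chr5:33684001-33700000, which had a log2 fold change of -0.20 ± 0.17 (SE, limma adjusted p = 0.760). In the H3K27me3 region next to the TSS, old replicate 2 alone was high, at 42.4, beside 21.3 and 24.3 in the other old and 20.6, 25.4 and 20.8 in the young libraries. H3K27ac at the Fgfr3 TSS had a log2 fold change of -0.23 ± 0.32 (SE, limma adjusted p = 0.872).

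Most H3K27me3 regions in the windows of Fgf1 and Fgf18 had lower values in the old libraries. The domain that contains Fgf1 had scaled signals of 413, 434 and 442 in young and 407, 350 and 355 in old libraries. The ages did not overlap, by a small margin (log2 fold change -0.21 ± 0.08, SE, limma adjusted p = 0.219). The next domain, chr18:38748501-38790500, lay outside the Fgf1 body, overlapped the neighbouring gene Arhgap26 and gave -0.32 ± 0.11 (SE, limma adjusted p = 0.169). Outside the body of Fgf18, the 45 kb region chr11:33166001-33211000 reached over the TSS of the homeobox gene Tlx3. It had scaled signals of 213, 225 and 237 in young and 207, 207 and 148 in old libraries. Its log2 fold change of -0.28 ± 0.11 (SE, limma adjusted p = 0.246) was -0.12 without old replicate 3, the lowest library. The 3.5 kb region next to the Fgf18 TSS, chr11:33142501-33146000, had a log2 fold change of -0.50 ± 0.27 (SE, limma adjusted p = 0.414), from 5 to 21 reads per old library and 20 to 33 per young library. Another 3.5 kb region, chr11:33118501-33122000, lay in the Fgf18 body and gave 0.03 ± 0.26 (SE, limma adjusted p = 0.972). The H3K27ac region over the Npm1 TSS lay outside the Fgf18 body, 0.101 kb from the nearest Fgf18 TSS. Its signal spread widely in old libraries (24.1, 49.0 and 40.4), around the young values of 28.1, 38.3 and 30.3.

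Fgf7 and Fgf9, the ligands with a single mark, gave values near 0. The 78 kb acetylated region of Fgf7 had scaled signals of 274, 268 and 256 in young and 252, 256 and 275 in old libraries, so that the ages overlapped (log2 fold change -0.03 ± 0.07, SE, limma adjusted p = 0.933). Over Fgf9, the H3K27me3 domain held 426, 405 and 446 in young and 435, 412 and 404 in old libraries (-0.03 ± 0.08, SE, limma adjusted p = 0.901). With these standard errors, the 2 broad domains were measured more tightly than any short promoter region of the family. At the first TSS of Fgf2 the log2 fold changes were 0.10 ± 0.21 (SE) for H3K27ac and -0.26 ± 0.19 (SE) for H3K27me3, and at the H3K27ac region over its internal TSS, chr3:37378001-37385000, the value was -0.02 ± 0.20 (SE). The acetylated region at the Fgfr1 TSS gave -0.05 ± 0.10 (SE, limma adjusted p = 0.922), and the H3K27me3 region beside it -0.18 ± 0.25 (SE, limma adjusted p = 0.804).

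In Fgfr2, the 67.5 kb acetylated region that holds the RefSeq TSS, chr7:130200001-130267500, had scaled signals of 142, 127 and 128 in young and 131, 135 and 138 in old libraries (log2 fold change 0.03 ± 0.09, SE, limma adjusted p = 0.955). Toward the 3′ end, the region chr7:130158501-130195500 had 68.6, 74.8 and 71.0 in young and 85.6, 89.5 and 76.2 in old libraries. There all old libraries were above the young ones, and the log2 fold change of 0.23 ± 0.11 (SE) did not pass the test (limma adjusted p = 0.497). The H3K27me3 region nearest a TSS of Fgfr2, chr7:130275501-130281500, lay 9.24 kb from the nearest GENCODE TSS and gave -0.12 ± 0.26 (SE, limma adjusted p = 0.877).

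Several windows reached regions of neighbouring genes or short distal regions, and there too the H3K27ac and H3K27me3 regions with the smallest p of a window did not pass the test. For H3K27ac these were the 27 kb region over the start sites of Nudt6 and Spata5 beside Fgf2 (log2 fold change 0.10 ± 0.13, SE), a 2.5 kb region 26.7 kb from the Fgf7 TSS (-0.32 ± 0.39, SE), a 2 kb region in the body of Fgf18 (0.62 ± 0.38, SE) and the 159.5 kb region over Nsd3, Letm2 and other genes beside Fgfr1 (0.06 ± 0.06, SE). The only H3K27ac region of Fgf1 had signals of 6.14, 9.71 and 10.4 in young and 9.87, 3.89 and 8.58 in old libraries, from 5 to 32 reads, and its log2 fold change of -0.28 was 0.10 without old replicate 2. For H3K27me3 they were a 22 kb region 42.5 kb from the Fgf9 TSS (0.08 ± 0.12, SE) and the upstream region of Fgfr1 (-0.14 ± 0.12, SE, limma adjusted p = 0.643). The H3K27me3 window of Fgf2 held an 83.5 kb region over Il21 with most of its signal (0.06 ± 0.08, SE).

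**Figure D4:**
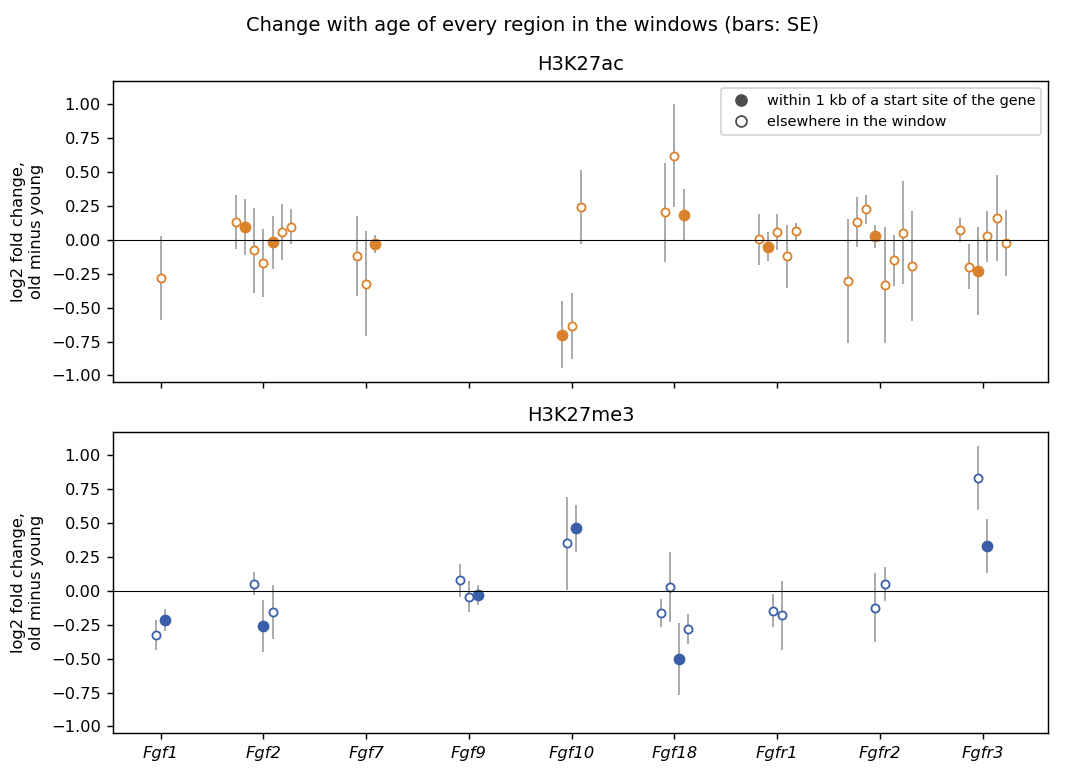
Log2 fold change (old minus young) of every region in the windows, with the SE as bars, for H3K27ac (top) and H3K27me3 (bottom) and the RefSeq body for Fgfr2. Filled points lie within 1 kb of a TSS of the gene. The Fgf10 TSS stands at -0.70 in H3K27ac and 0.46 in H3K27me3, and 0 of the points shown passed the test.

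Libraries of the ages did not overlap in 8 higher and 8 lower of the 92 H3K27ac regions, and with the RefSeq body of Fgfr2 in 1 in each direction of 36, where 14.5% of all H3K27ac regions had no overlap. In H3K27me3 there was no overlap in 11 higher and 6 lower of the 55 regions, and with the RefSeq body in 2 higher and 5 lower of 20, where 19.1% of all H3K27me3 regions had none. The prevailing direction in H3K27me3 thus turned with the body chosen for Fgfr2. With the RefSeq body the lower ones were the pair of Fgf1 domains, the Fgf18 region by the TSS, the Fgf18 region over Tlx3 and the upstream Fgfr1 region chr8:25476001-25501000, and the higher ones were those of Fgf10 and Fgfr3. The regions of a gene are neighbours in the same libraries and are not independent of each other.

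For window sums, each region that overlapped a window counted whole, also where it reached past the window. Summed in this way, 0 of 8 members with H3K27ac and 0 of 8 with H3K27me3 were called by limma, beside 0.684% of 17248 and 0.436% of 17445 protein-coding genes. An unadjusted p under 0.05 was reached by 1 member in H3K27ac (Fgf10) and by 4 in H3K27me3 (Fgf1, Fgf10, Fgf18 and Fgfr3), beside 12.1% and 14.4% of all genes, and edgeR and DESeq2 also called 0 in either mark. The H3K27ac sum of Fgf10 had a log2 fold change of -0.40 ± 0.15 (SE, limma adjusted p = 0.247), and the H3K27me3 sum one of 0.46 ± 0.16 (SE, limma adjusted p = 0.216). With flanks of 100 kb in place of 50 kb, the H3K27me3 value of Fgf10 was 0.16. For H3K27me3 the log2 fold changes were -0.23 ± 0.08 (SE, limma adjusted p = 0.216) for Fgf1, -0.24 ± 0.09 (SE, limma adjusted p = 0.263) for Fgf18 and 0.47 ± 0.18 (SE, limma adjusted p = 0.263) for Fgfr3. The Fgfr3 value was 0.19 without old replicate 2, and the Fgf18 value was -0.11 without old replicate 3. Of the mean young H3K27me3 sum of 334 for Fgf18, the region over Tlx3 held 225. Ages did not overlap in 1 of 8 H3K27ac windows with the annotated Fgfr2 body and in 2 of 8 with the RefSeq body, beside 16.6% of all genes, and in 3 of 8 H3K27me3 windows, beside 19.5% of all genes.

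The balance of the marks, taken as the log2 ratio of H3K27ac density to H3K27me3 density for libraries with the same number, could be computed for 7 members and 15639 genes. No test was made across the marks, because their tables were scaled apart. The labels do not say that libraries of the same number share cells, and the differences between group means do not depend on that pairing. Fgf10 had balances of 1.24, 1.48 and 1.31 in young and 0.846, 0.214 and 0.314 in old libraries. All old values were lower, and the difference between the means was -0.88. This was below all but 0.563% of genes, whose median was 0.06 and whose 5th and 95th percentiles were -0.40 and 0.45. The ranking did not match genes on signal, and the Fgf10 ratio rests on few reads. Regions covered only 7.87% of its window in H3K27ac and 5.85% in H3K27me3. Fgfr3 had a difference of -0.53, below all but 2.51% of genes, with 1 old value, 0.403, far from the others at 1.32 and 1.29. Fgf18 had a difference of 0.47, above 95.7% of genes, although old replicate 1, at -2.80, lay within the young range. Both densities of Fgf18 came mostly from regions outside its body, including those over Npm1 and Tlx3. The other members had differences from -0.09 for Fgf1 to 0.24 for Fgf2, with 0.16 for Fgfr1 and 0.09 for Fgfr2. With libraries of the same number, the groups did not overlap for 2 of the 7 members, Fgf10 and Fgfr3, and for 18.9% of all genes. Over every pairing of the libraries of an age, an alternative added after seeing the data, Fgf10 still had no overlap (1.13 to 1.59 in young and 0.0574 to 0.846 in old), whereas Fgfr3 had one (1.15 to 1.79 in young and 0.384 to 1.47 in old).

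**Figure D5:**
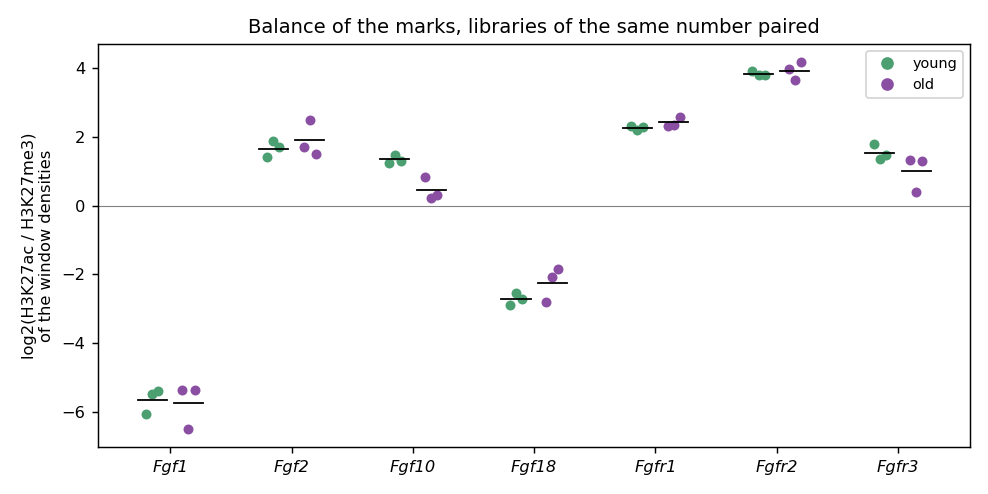
Log2 ratio of H3K27ac to H3K27me3 density in the window of each member with both marks, for young (green) and old (purple) libraries of the same number, with group means as black lines and the RefSeq body for Fgfr2. Fgf1 and Fgf18 lie below 0 and the others above it, and the old means lie lower than the young by 0.88 at Fgf10 and by 0.53 at Fgfr3.

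The rest of the pathway was covered by a list of 48 genes. H3K27ac lay within 1 kb of a TSS in 7 of 7 receptor-proximal adaptors, 4 of 4 transcriptional targets, 7 of 8 heparan sulphate proteoglycan cores and 5 of 7 feedback inhibitors, but in 1 of 12 other secreted FGFs. H3K27me3 was found there in 11 of 12 other secreted FGFs and in 4 of 4 intracellular FGF homologous factors, and also in 1 of 7 adaptors, 2 of 4 transcriptional targets, 3 of 7 feedback inhibitors and 2 of 8 proteoglycan cores. Over all genes these shares were the 53.6% and 33.9% of H3K27ac and H3K27me3, respectively.

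With age, 0 of 42 list genes with an H3K27ac window and 0 of 47 with an H3K27me3 window were called by limma, as were 0 of their TSS regions. In H3K27ac, 7 of 42 windows had an unadjusted p under 0.05, beside 12.1% of all genes, 5 higher and 2 lower in old cells, and the median log2 fold change was 0.03, beside 0.03 over all genes. In H3K27me3, 8 of 47 windows had such a p, beside 14.4% of all genes, all lower in old cells, and the median was -0.09, beside -0.04 over all genes. The smallest p values belonged to Gpc6, a glypican that binds FGFs, and the syndecan Sdc2 for lower H3K27ac (log2 fold changes -0.25 and -0.20, limma adjusted p = 0.105 and 0.272), and to Spry4, an inhibitor of receptor signalling, and the syndecan Sdc3 for higher H3K27ac (0.55 and 0.14, limma adjusted p = 0.199 and 0.311). For lower H3K27me3 they belonged to Fgf8, a ligand of limb and midbrain patterning, and again Spry4 (-0.28 and -0.26, limma adjusted p = 0.143 and 0.175), and for higher H3K27me3 to Fgf6 and Fgf23, which are neighbours (0.15 and 0.14, limma adjusted p = 0.422 and 0.437). Fgf3, Fgf4 and Fgf15 are neighbours too and shared regions, so the genes of the list are not independent.

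For each member with both marks, the gene most like it was found among 15661 genes by the Euclidean distance over the log2 signal per kb of region in the 12 libraries. The closest pairs were Fgfr2, with its annotated body, and Sec11a at a distance of 0.191, Fgfr1 and Gdpgp1 at 0.235, and Fgf2 and Metap1 at 0.239. Fgf18 and Kdf1 followed at 0.450, Fgfr3 and Vmn2r83 at 0.592, Fgf10 and Ism1 at 0.624, and Fgf1 and Reg4 at 0.702.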

How the data were processed

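CUT&RUN libraries of H3K27ac and H3K27me3 were analysed from 1 deposited table per mark. The submitters' processing notes name Bowtie2, Picard and the mm10 (GRCm38) build, and the region caller is not given in the sources used here. The authors deposited a signal per region and library, described as RPKM, but 100% of values were whole multiples of 1 step (tolerance 0.01), which is 1 read scaled by the library total and a constant 0.5 kb. Whole reads were thus recovered and region length did not enter, so the planned limma test was kept and count tests on the reads were alternatives. Of value columns, 0 were left unused.

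Regions were joined to GENCODE vM21 gene bodies ± 50 kb. Columns were scaled by the median of ratios, and log2(signal + 0.5) was fitted with limma 3.58.1 (variance trend, robust, two-sided, no replicate block) in R 4.3.3 over all regions of a mark, and window sums over all genes with a region, with Benjamini-Hochberg adjustment. Fold changes are on the log2(signal + 0.5) scale and understate those of weak regions. Alternatives were edgeR 4.0.16 and DESeq2 1.42.0 on the recovered reads, other scalings, pseudocounts, filters and flanks, a replicate block, and each library left out. The fits were tested on simulated data. Reads are not unique molecules, so depth speaks only of counting error.

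Named were all members, for each mark their region at or nearest a TSS, every called region and the one with the smallest p, the pathway genes with a call or otherwise the 2 smallest p values per mark and direction, and the most alike gene. Genes were compared in likeness outside 1 Mb of the member. The members and lists were chosen with earlier results of these data known.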

Additional observations from a re-analysis of the deposited data

How the results depend on the processing

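The count of called member regions in H3K27ac, 3, was 1 with DESeq2, 0 without variance trend and robust moderation, 0 with the RefSeq body of Fgfr2 (an alternative chosen after seeing the data), and 0 to 3 when each library was left out in turn. The counts of called H3K27me3 regions and of called windows of both marks were 0 under every alternative run. A pairing of the samples by replicate number was not shown. Deviations from the group means of same-numbered young and old libraries correlated at -0.0542 to 0.0656 in H3K27ac and -0.0778 to 0.0435 in H3K27me3. Differently numbered libraries reached -0.128 to 0.134 in H3K27me3, so these correlations cannot decide whether the numbers pair the samples. With the replicate block 3 H3K27ac member regions and 0 H3K27me3 regions were called. The median age difference of the balance over 7 members, with the annotated body of Fgfr2, was 0.00 and became 0.0862 with flanks of 10 kb, and with the RefSeq body at 50 kb it was the 0.09 of Fgfr2.

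Of 491 values of 27 single regions and windows under alternatives, 453 kept direction and side of the threshold, 16 kept direction and lost the call (all of them in the 3 called regions by Cpxm2), 0 gained one and 22 changed sign. Without scaling, the median of all regions shifted by -0.115 in H3K27ac and -0.119 in H3K27me3, and the H3K27ac log2 fold changes of Fgf2, Fgfr1, Fgfr2 and Fgfr3 became -0.0648, -0.0850, -0.104 and -0.0937, and the H3K27me3 values of Fgf2 and Fgfr2 -0.108 and -0.107. With equal column sums, Fgfr2 H3K27ac was -0.00447 and Fgf9 H3K27me3 0.0257. With flanks of 10 kb, Fgfr1 and Fgfr3 H3K27ac were -0.0263 and -0.0319 and Fgf2 H3K27me3 -0.220, and with flanks of 100 kb Fgf7 H3K27ac was 0.0157. With regions weighted by their share inside the window, Fgfr3 H3K27ac was -0.0550 and Fgf2 H3K27me3 -0.184. Leaving out 1 library gave ranges across 0 for H3K27ac of Fgf1 (-0.519 to 0.1003), Fgf2 (-0.0182 to 0.0951) and Fgfr3 (-0.0585 to 0.0800), and for H3K27me3 of Fgf2 (-0.0185 to 0.0366), Fgf9 (-0.0449 to 0.0141) and Fgfr2 (-0.0492 to 0.0675), all with the annotated body of Fgfr2. The cause was not tested. Old replicate 2 had 2750953 and 3622108 reads, and its H3K27ac library had a median of 12 reads per region, which limits the precision of short regions.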
